A study of Apis mellifera with 18 samples.

Results

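Brain transcripts of honeybee queens inseminated with sperm-free seminal fluid were compared with those of queens inseminated with whole semen in RNA-seq Experiment 2, which asks what the presence of sperm adds to seminal fluid. The comparison covered 6 libraries of the 18 in the series, replicates A, B and C of each group, each made from 3 pooled brains. Of the 15314 annotated gene models, 11790 reached 10 counts in 3 or more of these 6 libraries and were tested. All queens were Apis mellifera ligustica reared from larvae of 1 colony, were exposed to CO2 as virgins on the day before insemination, and were sedated with CO2 for the procedure. Semen queens received 6 µl of fresh ejaculate, and seminal fluid queens received 6 µl of thawed, previously frozen fluid from which sperm had been spun out, so that freezing and the absence of sperm cannot be told apart. The groups also differed in the drones from which the fluids were pooled, and an equal volume without sperm holds more seminal fluid, which cannot be told apart either. Another group received 6 µl of Hayes saline, a buffered salt solution. All brains, with optic lobes kept and glandular tissue removed, were taken from heads frozen 24 h after insemination. RNA-seq Experiment 1 held the same semen and seminal fluid groups beside mock-inseminated queens, again with 3 libraries each. Since whole pools of brains were sequenced, fewer cells of a type and less RNA per cell cannot be told apart.

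A drone's ejaculate consists of sperm and of seminal fluid, a secretion of the accessory glands rich in proteins and peptides. In Drosophila, proteins of the seminal fluid are known to change female physiology and behaviour after mating. The phototransduction pathway, on which the study centred, converts light into an electrical signal in photoreceptor cells. There, in Drosophila, activated rhodopsin signals through a G protein to the phospholipase C norpA, which leads to the opening of TRP cation channels, while the scaffold inaD holds the components together and kinases and class III myosins adjust the response.

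By edgeR, few differences between seminal fluid and semen passed the test fitted to all 3 groups of Experiment 2. Many passed when the saline libraries were left out of its estimate of the spread, and by DESeq2 with all 3 groups. In the edgeR quasi-likelihood fit of the 9 libraries of Experiment 2, 1 gene was called at an adjusted p under 0.1, which is 0.00848% of the genes tested. At an unadjusted p under 0.05 there were 2198 genes, 1031 higher and 1167 lower after seminal fluid. The same test fitted to the 6 libraries called 1201 genes (10.2%), of which 774 were higher (6.56%) and 427 lower (3.62%) after seminal fluid. DESeq2 fitted to the 9 libraries called 820 genes (6.96%), with 251 higher (2.13%) and 569 lower (4.83%). The direction that held most of the calls therefore differed between both fits. Of the calls, 64.4% were higher by edgeR with the 6 libraries and 30.6% by DESeq2 with the 9. Both fits shared 588 genes, 49.0% of the first list and 71.7% of the second, and 228 of these were higher and 360 lower. Without seminal fluid replicate C, a library that stood apart in other ways, DESeq2 called 515 genes, 85 higher and 430 lower, and edgeR with the 5 other libraries called 1345. The edgeR count with the 9 libraries was 743 without Hayes saline replicate C, 94 without semen replicate B and at most 2 without any other single library.

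**Figure D1:**
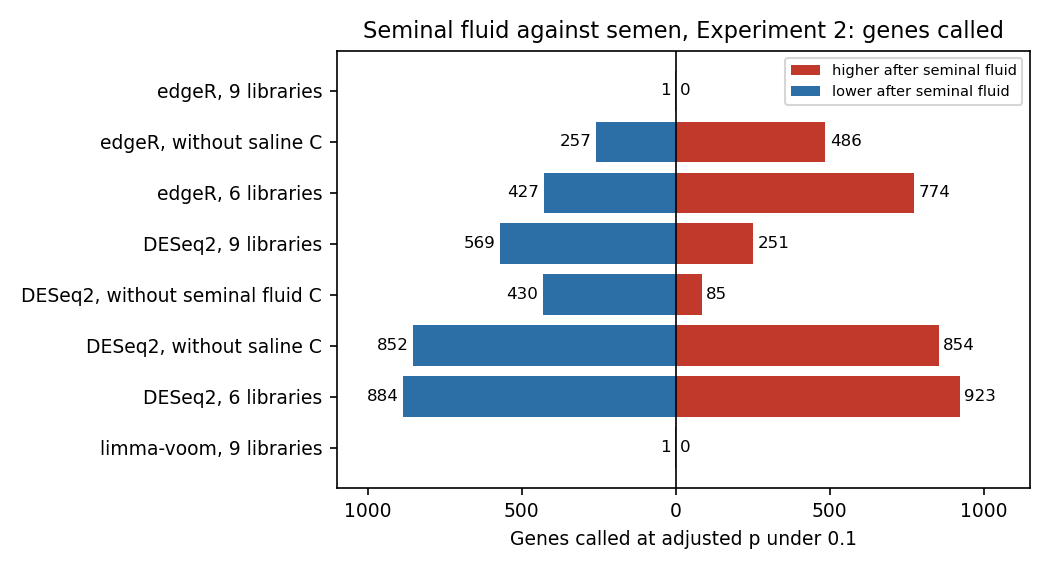
Number of genes called at an adjusted p under 0.1 between seminal fluid and semen of Experiment 2, by test and by the libraries in the fit. Bars to the right count genes higher after seminal fluid and bars to the left count genes lower. With 9 libraries edgeR and limma-voom each called 1 gene, whereas edgeR called 774 higher and 427 lower with 6 libraries, and 486 and 257 without Hayes saline replicate C.

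The size of the differences was small for most genes. Over all genes tested, the median of the absolute log2 fold change was 0.15, and the median of the signed values was 0.00 with 50.3% positive. The 774 genes called higher by edgeR with the 6 libraries had a median log2 fold change of 0.50, and the 427 called lower one of −0.46. A log2 fold change above 1 in size was found for 59 of the former and 32 of the latter. The 3 seminal fluid libraries lay wholly above the 3 semen libraries for 1879 genes (15.9%) and wholly below them for 1491 (12.6%). The split of the calls by direction varied with the level of a gene, given as normalized CPM (counts relative to the scaled library total). Among the 1948 genes with a mean of 100 CPM or more, DESeq2 called 22 higher and 231 lower after seminal fluid, and edgeR with the 6 libraries called 107 higher and 139 lower. Among the 2934 genes from 1 to 10 CPM, DESeq2 called 60 higher and 84 lower and edgeR 181 and 70.

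The gene called by edgeR with the 9 libraries was GB43778, which is not paired with a name. Its level was 189.3, 186.0 and 169.9 normalized CPM in the semen replicates A, B and C and 113.8, 105.3 and 109.8 CPM in those of seminal fluid. All 3 seminal fluid libraries therefore lay below all 3 semen libraries, and the saline libraries lay between them at 155.0, 138.9 and 131.3 CPM. It fell by 0.73 on the log2 scale after seminal fluid (SE 0.08; edgeR adjusted p = 0.0823, and 0.0132 with the 6 libraries). With the 9 libraries the call was lost without Hayes saline replicate B (adjusted p = 0.301), either semen replicate A (0.230) or semen replicate C (0.220), or any seminal fluid replicate (0.261 for A, 0.404 for B and 0.282 for C), while the log2 fold change stayed between −0.69 and −0.78. In the edgeR fits of 5 of the 6 libraries its adjusted p lay between 0.0188 and 0.0734. DESeq2 called it too, with an adjusted p of 9.91e-13 with the 9 libraries and 2.11e-14 with the 6.

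Further unnamed genes were taken from those called by edgeR with the 6 libraries and by DESeq2, without overlap between semen and seminal fluid libraries. Of these, GB40009 and GB48514 had the largest rises and GB50613 the largest fall at a mean of at least 5 CPM. Their lack of overlap is therefore fixed by the choice. GB40009 was at 21.3, 31.9 and 21.2 normalized CPM after semen and at 78.4, 67.7 and 66.5 after seminal fluid. The 3 saline libraries spanned both groups, at 54.7, 25.9 and 97.0 CPM. Its log2 fold change was 1.51 (SE 0.39), with an adjusted p of 0.229 by edgeR with the 9 libraries, 0.0167 with the 6, and 0.0351 by DESeq2. GB48514 was at 5.83, 7.11 and 5.98 CPM after semen and at 13.03, 16.8 and 13.5 after seminal fluid, a log2 fold change of 1.20 (SE 0.42; edgeR adjusted p = 0.235, 0.0167 with the 6 libraries). Its saline libraries were again spread over both groups, at 3.99, 6.79 and 16.8 CPM. GB50613 was at 14.7, 5.66 and 9.22 CPM after semen and at 1.03, 2.87 and 2.21 after seminal fluid, a log2 fold change of −2.27 (SE 0.44; edgeR adjusted p = 0.229, 0.0445 with the 6 libraries). Semen replicate A was the highest library, and without it the adjusted p with the 6 libraries was 0.145. The call of GB50613 was also lost without semen replicate C (0.130), seminal fluid replicate A (0.100) or B (0.117).

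**Figure D2:**
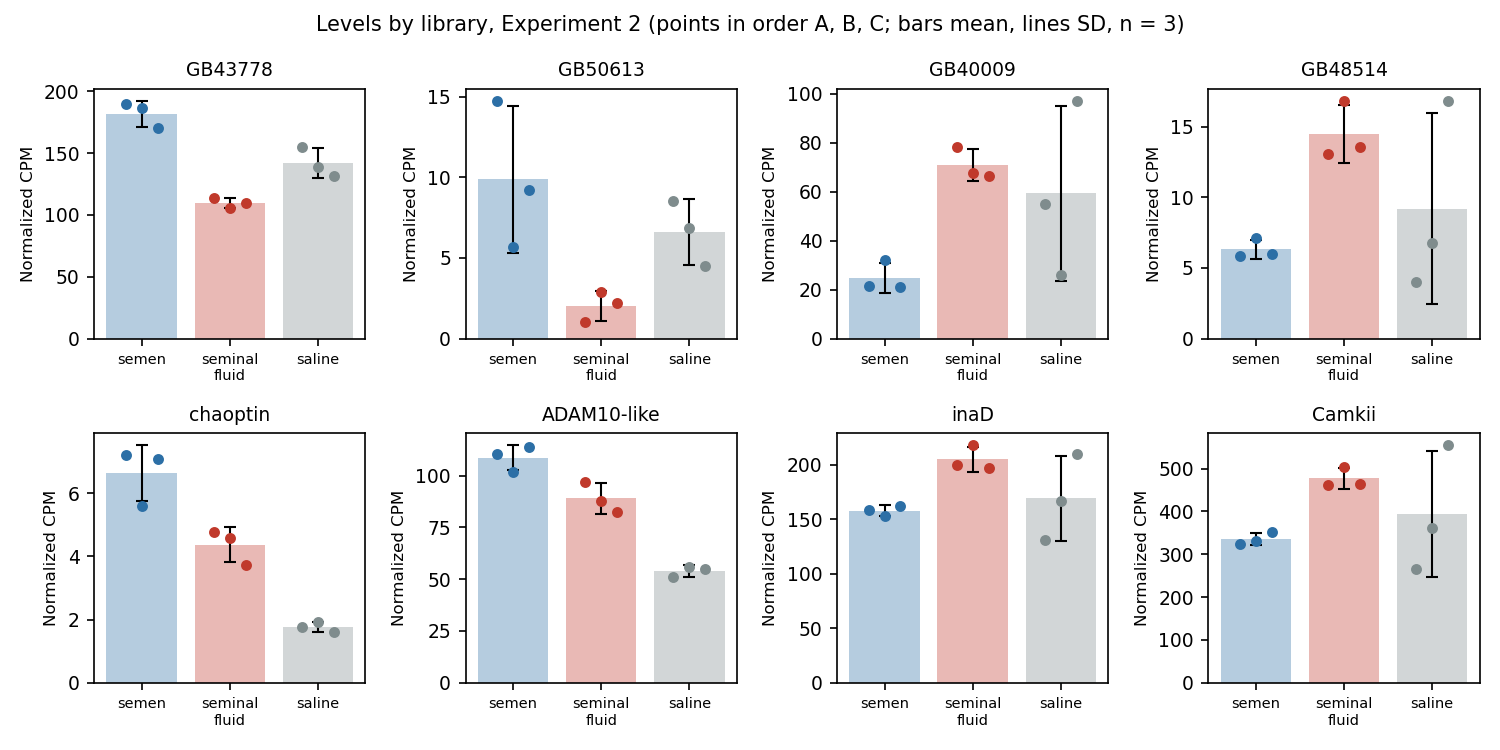
Normalized CPM of 8 genes in the semen, seminal fluid and Hayes saline libraries of Experiment 2, with points for replicates A, B and C from left to right, bars for the mean and lines for the SD (n = 3). In each of the 8 genes the semen and seminal fluid libraries do not overlap, which the choice of genes fixes in part. The saline libraries of GB40009, GB48514, inaD and Camkii are spread from the semen range or below it to the seminal fluid range or above it.

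The saline libraries also varied along the genes called higher after seminal fluid, and less along those called lower. Over the 774 genes called higher by edgeR with the 6 libraries, the median SD of log2 CPM among the saline libraries was 0.425, against 0.161 over all genes tested. The corresponding SDs among semen (0.132 and 0.131) and seminal fluid libraries (0.0903 and 0.115) are partly fixed by the choice, since the test favours genes with a small spread within both groups. Measured from the mean of the semen libraries, the median over the 774 genes was 0.50, 0.54 and 0.43 log2 units in the seminal fluid replicates A, B and C, a separation that the choice of genes fixes. The saline libraries, which had no part in that choice, were at −0.27, 0.07 and 0.54. Hayes saline replicate C was therefore at the level of seminal fluid and replicate A below every semen library. Over the 427 genes called lower, seminal fluid replicates were at −0.40, −0.49 and −0.45 and the saline replicates at −0.10, −0.32 and −0.36. The median SD among the saline libraries was 0.188 over these 427 genes, near the 0.161 of all genes tested.

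The libraries of Experiment 1 were spread along the same genes without separating by treatment. Over the 774 genes, and measured from the Experiment 1 semen mean, the semen replicates were at −0.20, −0.10 and 0.29, the seminal fluid replicates at −0.10, −0.24 and −0.03, and the mock replicates at −0.12, 0.15 and −0.26. Semen replicates A and C of Experiment 1 were thus nearly as far apart as the 2 groups of Experiment 2. Over the 427 genes, semen replicate A and seminal fluid replicate A stood above the other Experiment 1 libraries, at 0.24 and 0.26. The cause of this spread within groups was not tested.

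**Figure D3:**
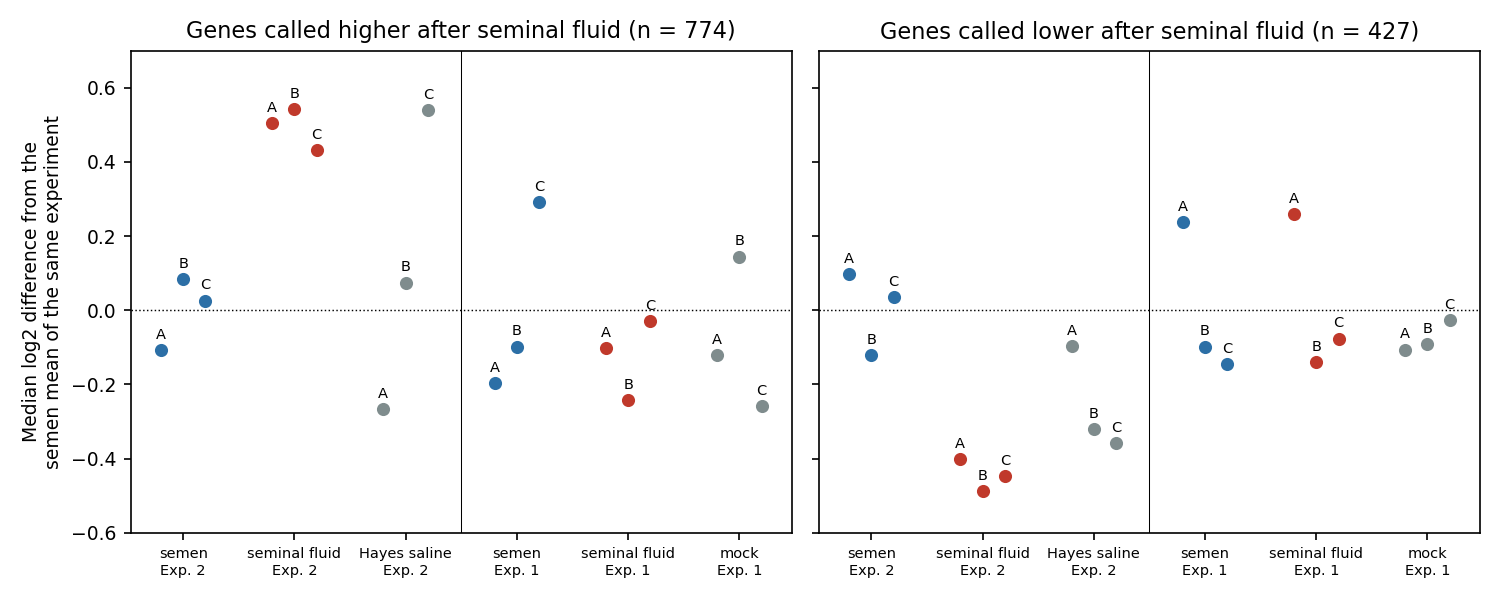
Median log2 difference of each library from the semen mean of its own experiment, over the 774 genes called higher and the 427 genes called lower after seminal fluid by edgeR with the 6 libraries of Experiment 2. Letters are replicates. Hayes saline replicates range from −0.27 to 0.54 over the genes called higher, and semen and seminal fluid of Experiment 1 overlap in both panels.

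In Experiment 1, edgeR called 0 of 11688 genes between seminal fluid and semen, with 678 at an unadjusted p under 0.05, and DESeq2 called 1 (0.00856%). Of the genes called higher with the 6 libraries of Experiment 2, 224 of the 760 measured in both experiments (29.5%) had a log2 fold change of the same sign in Experiment 1, and of those called lower 152 of 427 did (35.6%). Over all 11551 genes measured in both, the share was 41.9%, and the log2 fold changes correlated at −0.03 across genes, which are not independent replicates. Of these 11551 genes, 222 had groups wholly apart in both experiments, 164 in opposite directions and 58 in the same direction. In Experiment 2 alone, 15.9% of genes tested were wholly apart and higher after seminal fluid, and 12.6% wholly apart and lower. Nothing particular is read from the 222 genes. The difference between the experiments was called for 0 genes by edgeR's interaction contrast (1704 at an unadjusted p under 0.05) and for 328 by DESeq2 (2.84%). GB43778, lower after seminal fluid in Experiment 2, had a log2 fold change of 0.10 (SE 0.20) in Experiment 1, where its libraries overlapped at 153.9 to 278.8 CPM after semen and 205.5 to 227.1 after seminal fluid. GB40009 was lower after seminal fluid there on average, at −1.02 (SE 0.38), but its range of 16.4 to 22.1 CPM overlapped that of semen at 21.5 to 63.5 CPM. GB48514 was at −0.30 (SE 0.38) there with overlapping libraries. GB50613 was lower after seminal fluid in Experiment 1 too, at −1.25 (SE 0.63; edgeR adjusted p = 0.887). Its seminal fluid libraries, at 81.4, 103.2 and 18.2 CPM, lay wholly below those of semen, at 146.3, 161.7 and 173.5 CPM.

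Genes of the phototransduction pathway, the 22 identifiers that the study mapped to it, were all tested. By edgeR with the 9 libraries 0 of the 22 were called, and 6 (27.3%) had an unadjusted p under 0.05, 4 higher and 2 lower, against 18.6% of all genes. With the 6 libraries edgeR called 3 of them, all higher after seminal fluid, where 6.56% of all genes were called higher. DESeq2 with the 9 libraries called 1, lower, where 4.83% of all genes were called lower. Seminal fluid and semen did not overlap for 4 that were higher (15.9% of all genes) and 1 that was lower (12.6% of all genes). Nothing particular to the list is read from these counts. The median log2 fold change of the 22 was 0.11, against 0.00 over all genes, and it was −0.04 without seminal fluid replicate C.

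Among the effector enzymes, norpA, the phospholipase C effector of phototransduction in Drosophila, stood at 414.5, 395.6 and 423.3 normalized CPM after semen and at 404.3, 405.8 and 401.2 after seminal fluid. The seminal fluid values lay within the semen range, and the log2 fold change was −0.03 (SE 0.07; edgeR adjusted p = 0.870). PLC, a further phospholipase C by its symbol, had a log2 fold change of 0.07 (SE 0.09). Both groups of norpA lay above the saline libraries, which were at 265.3, 299.5 and 299.0 CPM.

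Elsewhere in the list, 3 genes were called higher after seminal fluid by edgeR with the 6 libraries. inaD, the PDZ scaffold that assembles the signalling complex in Drosophila photoreceptors, was at 158.1, 152.9 and 162.3 CPM after semen and at 199.5, 217.8 and 197.0 after seminal fluid, without overlap. It rose by 0.38 on the log2 scale (SE 0.14; edgeR adjusted p = 0.0362 with the 6 libraries, 0.237 with the 9). Camkii, a calcium/calmodulin-dependent protein kinase, was at 323.3, 330.8 and 351.4 CPM after semen and at 461.9, 504.9 and 465.1 after seminal fluid. It rose by 0.51 (SE 0.22; adjusted p = 0.0236 with the 6 libraries, 0.253 with the 9). GB46583, a pathway member for which no name was found, was at 450.7, 488.7 and 488.4 CPM after semen and at 602.4, 646.4 and 562.2 after seminal fluid, a rise of 0.34 (SE 0.13; adjusted p = 0.0649 with the 6 libraries).

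The 3 genes had wide and parallel spreads among the saline libraries. Replicates A, B and C of Hayes saline were at 131.1, 166.2 and 209.3 CPM for inaD, at 265.4, 360.2 and 554.9 for Camkii, and at 445.8, 531.9 and 653.2 for GB46583. Each of them therefore ran from below the semen mean to above the seminal fluid mean. In fits of 5 of the 6 libraries, the call of Camkii was lost without seminal fluid replicate B (edgeR adjusted p = 0.104). That of inaD was lost in 4 of the 6 fits, in which semen replicate A (0.128), semen replicate C (0.106), seminal fluid replicate A (0.109) and seminal fluid replicate B (0.150) were left out. That of GB46583 was lost in the same 4 fits (0.204, 0.161, 0.162 and 0.223). DESeq2 with the 9 libraries called none of the 3, with an adjusted p of 0.152 for Camkii and 0.132 for GB46583. With only the 6 libraries, DESeq2 called all 3 (adjusted p = 0.000244 for inaD, 1.54e-07 for Camkii and 0.00273 for GB46583). In Experiment 1 their log2 fold changes were −0.04 for inaD, −0.07 for Camkii and −0.40 for GB46583, whose 3 seminal fluid libraries lay wholly below the 3 semen libraries there.

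Of the remaining members, the largest negative values were those of DAGLB and the actin genes. DAGLB, a diacylglycerol lipase by its symbol, was at 7.34, 8.24 and 3.34 CPM after semen and at 4.04, 2.25 and 2.69 after seminal fluid, where semen replicate C fell within the seminal fluid range. It was called by DESeq2 (log2 fold change −1.08, adjusted p = 0.0846, and 0.0124 with the 6 libraries). By edgeR it was not called (−1.07, SE 0.41, adjusted p = 0.237, and 0.134 with the 6 libraries). In Experiment 1 its log2 fold change was −0.74 (SE 0.23; edgeR adjusted p = 0.849). Seminal fluid there, at 1.37, 1.76 and 1.69 CPM, lay wholly below semen, at 2.23, 3.30 and 2.53 CPM. Arp1, an actin-related protein by its symbol, did not overlap between groups, at 1947 ± 185 CPM after semen and 1693 ± 31.4 after seminal fluid (SD, n = 3), with a log2 fold change of −0.20 (SE 0.09). Actin (a) and Actin (b), cytoskeletal genes of the list, had log2 fold changes of −0.41 (SE 0.24) and −0.53 (SE 0.29) with overlapping libraries. DESeq2 with only the 6 libraries called Actin (b) (adjusted p = 0.0372) and not Actin (a) (0.180). TRPgamma, a TRP-family channel, was at 0.16 (SE 0.11), and Pkc, a protein kinase C, at −0.04 (SE 0.07). Among members with a locus symbol only, LOC550818 did not overlap between groups, at 102 ± 0.948 CPM after semen and 118 ± 8.76 after seminal fluid (log2 fold change 0.20, SE 0.09), while LOC413197 did, at 261 ± 17.7 and 233 ± 7.86 CPM (−0.16, SE 0.07). Neither passed edgeR's test with the 6 libraries (adjusted p = 0.152 and 0.247).

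The largest positive differences of the list rested on seminal fluid replicate C. LOC409631 (GB47942) was at 4.99, 2.23 and 10.8 CPM after semen and at 2.23, 3.07 and 79.6 after seminal fluid, and LOC550791 (GB51068) at 211.3, 179.3 and 246.9 against 118.9, 229.3 and 990.0. myosin-IIIb, a class III unconventional myosin, was at 68.5, 75.9 and 60.9 CPM against 56.4, 77.2 and 247.1, and ninaC, whose Drosophila namesake is a photoreceptor myosin III, at 16.2, 15.8 and 12.9 against 9.99, 19.0 and 43.3. GNB1, a G protein beta subunit, was at 1.83, 1.66 and 1.61 CPM against 1.20, 1.48 and 7.23. In these 5 genes replicate C was 2.28 to 7.34 times the next highest of the 6 libraries, and in TRP, the light-activated channel of Drosophila, it was 1.84 times. None of the 6 was called. With the 9 libraries their log2 fold changes were 2.23 (SE 1.19), 1.07 (SE 0.62), 0.89 (SE 0.47), 0.69 (SE 0.42), 0.97 (SE 0.60) and, for TRP, 0.51 (SE 0.37). Without seminal fluid replicate C they were −1.18 (SE 0.56), −0.29 (SE 0.26), −0.03 (SE 0.20), −0.04 (SE 0.24), −0.34 (SE 0.23) and, for TRP, −0.05 (SE 0.27). All 6 were then below 0, but those of myosin-IIIb, ninaC and TRP were near 0 beside their SE. inaD, Camkii and GB46583 kept values of 0.40, 0.53 and 0.39. A like spread within a group was found in Experiment 1, where LOC409631 was at 209.4, 4.38 and 38.7 CPM in the seminal fluid replicates A, B and C and at 39.3 to 70.6 CPM after semen.

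Seminal fluid replicate C stood apart over many genes. Of the 10578 genes with a mean of at least 1 CPM, 124 were at least 2-fold above all 5 other libraries there, against 1 to 11 in each of the others, and 27 were at least 2-fold below. GB49544, the most abundant gene when the 9 libraries of Experiment 2 are summed but not in 4 of the 6 compared, took 8.90% of its counts, against 0.840% and 0.949% in the other seminal fluid libraries and 0.926% to 1.40% after semen. Outside the 6 libraries compared, GB49544 took 2.20% to 4.74% in the saline libraries and 2.98% to 9.96% in those of Experiment 1. The share of reads outside annotated genes in seminal fluid replicate C was 18.1%, against 19.7% to 20.7% in the other 5 libraries compared. The part of these values in the comparison was not tested, and opsins and markers of other cell types could not be matched to identifiers.

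**Figure D4:**
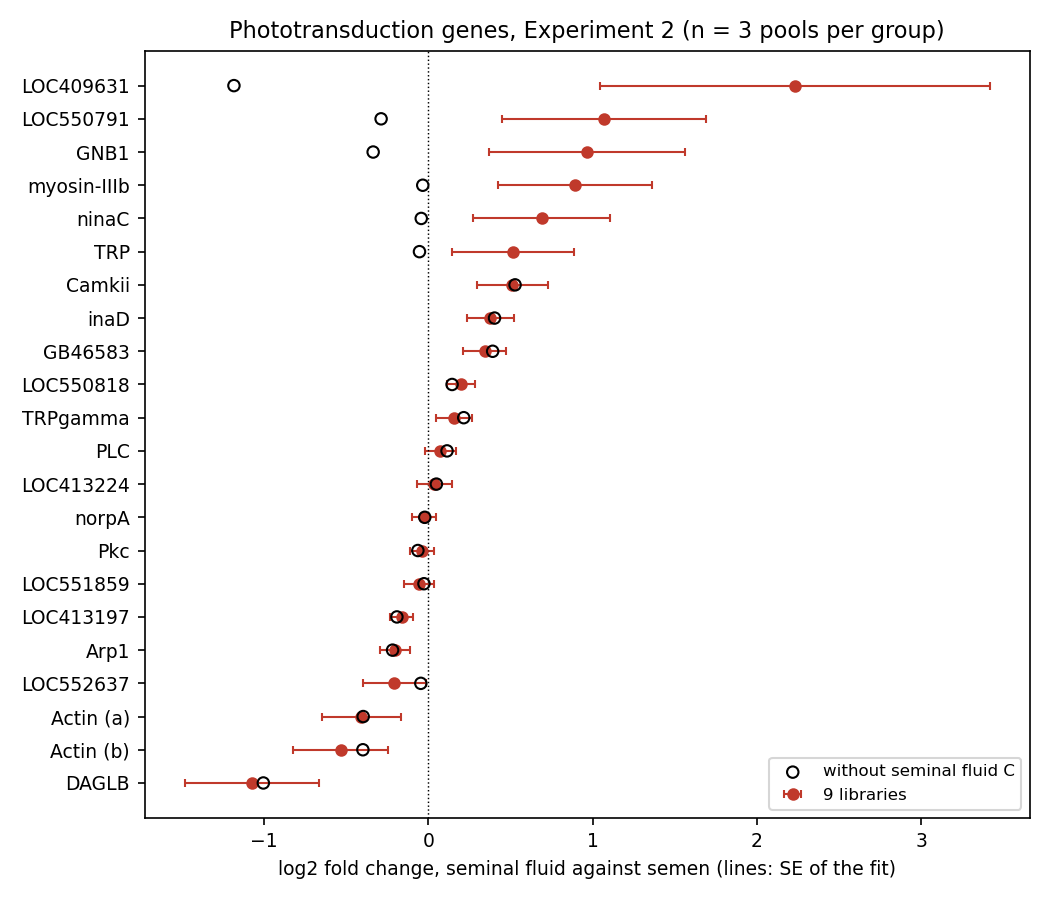
Log2 fold change between seminal fluid and semen of Experiment 2 for the 22 phototransduction genes, with the SE of the edgeR fit of 9 libraries (filled points), and the value without seminal fluid replicate C (open points). The 6 largest positive values, from TRP at 0.51 to LOC409631 at 2.23, lie below 0 without that replicate, while Camkii, inaD and GB46583 stay at 0.39 to 0.53.

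A list of 37 genes held those with consistent changes after semen and seminal fluid against the controls of both experiments. It was chosen by the study on these samples, so that small differences between both fluids are partly fixed by the choice. By edgeR 0 of the 37 were called with the 9 libraries, 5 (13.5%) had an unadjusted p under 0.05, against 18.6% of all genes, and 2 were called with the 6 libraries, both lower after seminal fluid (3.62% of all genes). DESeq2 called 3, all lower (4.83% of all genes). Nothing particular to the list is read from these counts. Their median log2 fold change was −0.03, with a range of −0.60 to 0.38, and 18 were positive and 19 negative. The sign of this median turned without semen replicate C (0.02) or seminal fluid replicate C (0.03).

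Chaoptin, a cell surface glycoprotein that joins photoreceptor membranes in Drosophila, was at 7.21, 5.61 and 7.08 normalized CPM after semen and at 4.78, 4.58 and 3.74 after seminal fluid, with no overlap. The saline libraries were lower than both, at 1.77, 1.94 and 1.62 CPM. It fell by 0.60 (SE 0.15; edgeR adjusted p = 0.0764 with the 6 libraries, 0.229 with the 9; DESeq2 0.0310). ADAM10-like, whose best match is a metalloprotease anchored in the membrane, was at 110.6, 102.0 and 113.6 CPM after semen and at 97.1, 87.7 and 82.3 after seminal fluid, above saline values of 50.9, 56.0 and 55.0. It fell by 0.29 (SE 0.08; adjusted p = 0.0960 with the 6 libraries, 0.229 with the 9; DESeq2 0.0460). Both calls by edgeR held in 1 of the 6 fits of 5 libraries, the one without semen replicate B (0.0439 and 0.0780), and were lost in the other 5, with an adjusted p between 0.114 and 0.228 for chaoptin and between 0.131 and 0.281 for ADAM10-like. In Experiment 1 their log2 fold changes were −0.08 and −0.01.

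Odorant receptor 85f-like, an olfactory receptor by its best match, was the remaining gene called lower by DESeq2 (adjusted p = 0.0890). Its replicates were at 20.2, 19.7 and 26.4 CPM after semen, 18.3, 14.3 and 16.4 after seminal fluid and 9.48, 8.20 and 7.47 after saline. Its log2 fold change was −0.44 (SE 0.14), and edgeR did not call it (adjusted p = 0.234, 0.122 with the 6 libraries). GTP-binding REM 1, a small GTPase of the Ras superfamily by its best match, lay higher after seminal fluid without overlap, at 40.1, 48.4 and 42.6 CPM against 31.3, 35.01 and 39.5 after semen, and 21.0, 23.7 and 27.9 after saline. Its log2 fold change of 0.31 (SE 0.13) was not called by either tool with the 9 libraries (edgeR adjusted p = 0.245, DESeq2 0.191). Otoferlin-like, a calcium-binding membrane protein by its best match, was at 280 ± 22.4 CPM after semen and 338 ± 48.8 after seminal fluid (SD, n = 3), with a log2 fold change of 0.27 (SE 0.11; edgeR adjusted p = 0.246).

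DMRT A2-like, named for a DM-domain transcription factor, was lower on average after seminal fluid, at −0.41 (SE 0.21; edgeR adjusted p = 0.317), with overlapping libraries and means of 10.3 CPM after semen and 7.77 after seminal fluid. Of the neuropeptide precursors, prohormone-3 had 816.5 ± 48.2 CPM after semen, 817.0 ± 102.1 after seminal fluid and 445.1 ± 4.93 after saline (SD, n = 3), and prohormone-2-like 727.5 ± 37.7, 683.7 ± 58.4 and 439.1 ± 13.6. Their log2 fold changes from semen to seminal fluid were 0.00 (SE 0.10) and −0.09 (SE 0.08). Among adhesion proteins, both neuroligin-4-like genes (GB42885 and GB42886), postsynaptic adhesion molecules by their best match, were at 0.16 (SE 0.20) and 0.09 (SE 0.17), cell adhesion molecule 3-like was at 0.09 (SE 0.08) and Hemicentin-1-like, an extracellular matrix protein by its best match, at 0.17 (SE 0.21). Hemicentin-1-like turned to −0.08 without seminal fluid replicate B.

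Of the transporters and signalling genes, Tret1, a trehalose transporter, was at −0.30 (SE 0.18), Src64B, a tyrosine kinase, at −0.19 (SE 0.10), and D-ETS-4, an ETS transcription factor, at 0.38 (SE 0.20), the largest positive value of the list. Tret1 had 6.08 ± 1.21 CPM after semen, 4.93 ± 0.360 after seminal fluid and 1.92 ± 0.328 after saline (SD, n = 3). Bardet-Biedl syndrome 2 homolog, a ciliary protein by its best match, was at 69.5 ± 5.79 CPM after semen and 67.7 ± 12.4 after seminal fluid, a log2 fold change of −0.04 (SE 0.13) that turned to 0.02 without semen replicate C and 0.08 without seminal fluid replicate C. Thrombospondin type-1 domain-containing 4-like, lower after both fluids than after saline at 96.9 ± 5.32 CPM, was measured at 69.4 ± 9.17 after semen and 63.8 ± 5.06 after seminal fluid, with a log2 fold change of −0.12 (SE 0.10). None of these was called by edgeR or DESeq2 between seminal fluid and semen with the 9 libraries.

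**Figure D5:**
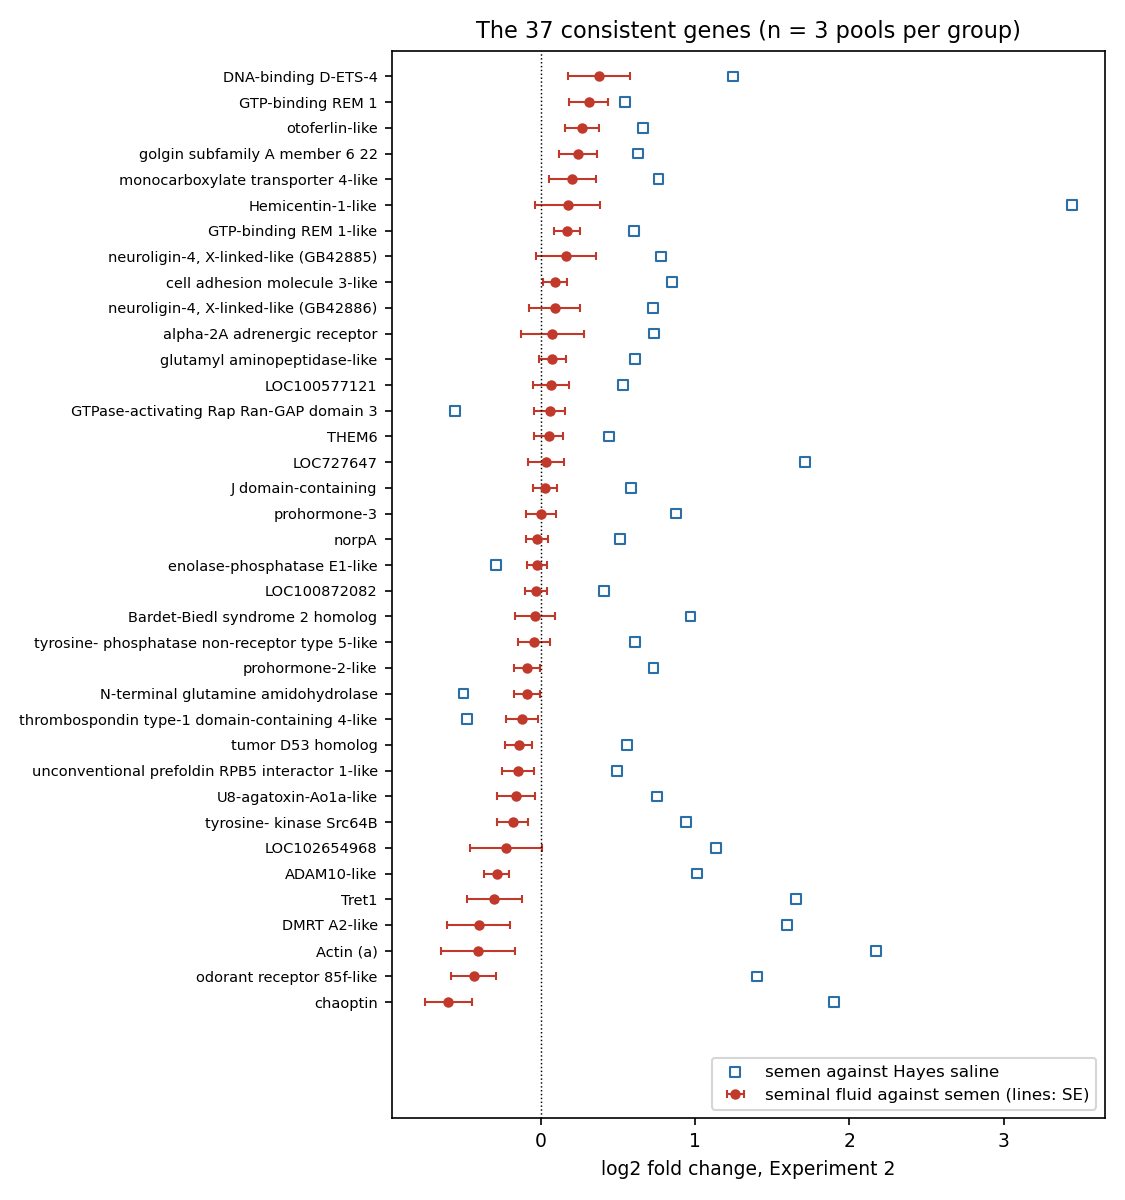
Log2 fold changes of the 37 consistent genes in Experiment 2, between seminal fluid and semen with the SE of the edgeR fit of 9 libraries (filled points) and between semen and Hayes saline from the same fit (open squares), which share the semen libraries. Values between seminal fluid and semen range from −0.60 for chaoptin to 0.38 for D-ETS-4.

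Library sizes overlapped between both groups. Semen libraries held 32041040 to 41935660 counts in genes, and seminal fluid libraries 32912879 to 44633262. The share of ambiguous reads was 4.51% to 4.63% after semen and 4.16% to 4.34% after seminal fluid, and that of reads aligned to several places 6.04% to 6.39% and 5.69% to 5.97%. Neither share overlapped between groups (two-sided exact permutation test, p = 0.1, the smallest that 3 libraries against 3 allow, and 0.650 after adjustment over 13 comparisons). Their part in the results was not tested. No pair of libraries within a group held near-identical counts, with a chi-square per gene of 18.3 or more.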

How the data were processed

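Poly(A) RNA of pooled brains was sequenced as single-end reads of 120 bp from strand-marked libraries. The authors trimmed reads with Trimmomatic, removed ribosomal reads with SortMeRNA, aligned with STAR 2.4.2a to the honeybee assembly 4.5 and counted with htseq-count. They deposited raw counts per gene model, not normalized. How strand and overlapping genes were handled in counting is not given in the sources used here. The 5 totals of unassigned reads were left out, which held 27.9% to 31.2% of the counts in the 6 libraries.

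Counts were scaled by TMM and tested in R 4.3.3 with edgeR 4.0.16 (two-sided quasi-likelihood test, Benjamini-Hochberg adjustment over all genes tested), in 1 fit of the 9 libraries of Experiment 2, without covariates. A gene was called when its adjusted p lay under 0.1, since the authors used a false discovery rate of 10%. Each side had 3 separate pools of queens. Standard errors came from the model, and 2 was the prior count for log2 CPM. Alternatives used edgeR with only the 6 libraries compared or with all 18, DESeq2 1.42.0, limma-voom (limma 3.58.1), other scalings and filters, a replicate block and single libraries left out. DESeq2 without single libraries and in Experiment 1 was added after seeing the data. The edgeR and DESeq2 tests of seminal fluid against semen, with 9 and with 6 libraries, were also run on simulated data. The other tests were not. Simulated counts were drawn independently for each gene, without a spread that many genes share. They therefore cannot decide between the fits, and nothing is read from them here.

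The groups, members, lists and the rule for named genes were chosen with earlier results of these data known. The rule took the genes called in the main fit, the members of both lists with an unadjusted p under 0.05 or called with the 6 libraries, genes that the study's text names, and the largest changes called by both tools. These largest changes were also required not to overlap between semen and seminal fluid libraries. Identifiers were paired with names through the study's own tables, which gave 57 names, and Entrez numbers through RefSeq (Amel_HAv3.1), which matched 20 of the 22 phototransduction genes. Names given as best matches are those of the study. Lists of opsins, ribosomal, mitochondrial, neuropeptide, channel, immune, hormone and cell type marker genes could not be filled from these names and were not analysed here, and neither were sequences.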

Additional observations from a re-analysis of the deposited data

Results flagged for a closer look

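The difference between seminal fluid and semen itself differed between the experiments for 328 genes by DESeq2's interaction contrast, 268 with a larger and 60 with a smaller value in Experiment 2, and for 0 by edgeR's (1704 at an unadjusted p under 0.05). GB40009 differed by 2.52 on the log2 scale (DESeq2 adjusted p = 0.0394, edgeR 0.195), from 1.51 in Experiment 2 to −1.02 in Experiment 1. GB43778 differed by −0.83 (DESeq2 adjusted p = 0.0703, edgeR 0.212), and GB46583 of the phototransduction list by 0.73 (DESeq2 adjusted p = 0.0403, edgeR 0.195). The 3 seminal fluid libraries of GB46583 were wholly above the semen libraries in Experiment 2 and wholly below them in Experiment 1. The experiments differed in their control group and in time, and the cause was not tested. Outlying libraries were not looked for with a formal test, since each group held 3.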

How the results depend on the processing

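The count of genes called between seminal fluid and semen depended on the libraries and the tool. Against 1 gene by edgeR with 9 libraries, the count was 1201 with only the 6 libraries compared, 0 with all 18 libraries (1713 at an unadjusted p under 0.05), 820 by DESeq2 and 1807 by DESeq2 with the 6 libraries (923 higher and 884 lower). It was 0 with upper quartile scaling (2198 at an unadjusted p under 0.05) or at an adjusted p under 0.05, and 1 with relative log expression scaling, no filter, a filter of 1 CPM, a robust prior, limma-voom with or without quality weights, or without the most abundant gene. With single libraries left out, the count ranged from 0 to 743 by edgeR with 9 libraries and from 28 (without seminal fluid replicate B) to 1889 (without semen replicate B) with 6, where 174, 189 and 230 genes were called without semen replicate A, semen replicate C and seminal fluid replicate A. All 1201 genes kept their direction in each of these 6 fits. DESeq2 with 9 libraries gave 515 and 1706 without seminal fluid replicate C and Hayes saline replicate C, alternatives chosen after seeing the data. With the replicate letter as a block, the count was 4 with 9 libraries, all lower, and 844 with 6 (511 higher). Deviations of same-letter semen and seminal fluid libraries correlated at 0.0904 to 0.109. Each of the 3 letters correlated best with itself, a hint from the data. Saline libraries correlated with these at −0.215 to 0.101 for the same letter and at −0.158 to 0.212 for other letters. Since not all semen and seminal fluid values passed 0.1, the letters were not taken as pairs. Genes whose libraries did not overlap numbered 3401, 3273 and 2270 with relative log expression, upper quartile and no scaling beyond totals. The interaction between experiments gave 328 genes by DESeq2 against 0, and Experiment 1 gave 1 against 0. The cause of these differences was not tested.

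The log2 fold changes of 6 of the 26 named genes changed sign when 1 library was left out, some only to values near 0. They ranged from −0.054 to 0.863 for TRP (GB41297), from −0.336 to 1.36 for GNB1 (GB41758), from −0.034 to 1.25 for myosin-IIIb (GB43718) and from −0.043 to 1.06 for ninaC (GB45512), lowest without seminal fluid replicate C and highest without replicate A. Hemicentin-1-like (GB44248) ranged from −0.082 to 0.330 and Bardet-Biedl syndrome 2 homolog (GB54522) from −0.181 to 0.076. No direction of the 26 genes turned under the other 14 alternatives, where 330 of 364 values stayed on their side of the threshold, 32 gained a call and 2 lost one, both of GB43778. With 3 pools a side, small differences may not be detectable.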
